A study of Homo sapiens with 8 samples.

Results

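The miR-106b/93/25 cluster is a group of 3 miRNA hairpins, MIR106B, MIR93 and MIR25, that lie one after another in an intron of MCM7, the gene of a subunit of the replicative DNA helicase. Its members are the 6 mature miRNAs cut from these hairpins, the 5p and the 3p arm of each, and they are 6 of the 3112 miRNAs in the count table, of which 1482 are known and 1630 are predicted. The cluster was chosen for description with the comparison of the groups already known. miR-106b-3p is among the candidate miRNAs that the study selected on their difference between these groups. It is not among those the study kept after qRT-PCR in other cells. The values of the 6 members and the ratios of their arms are therefore given as a description with no test. Small RNA of 786-O, an established line of clear cell renal cell carcinoma written 786O in the labels, was sequenced in 4 NC libraries, which received a control plasmid, and in 4 circSOD2-sh libraries, which received a plasmid with a short hairpin RNA against circSOD2, a circular RNA of SOD2 exons. The comparison asked which miRNAs differ when circSOD2 is knocked down. By the labels, both groups were transfected with Lipofectamine 3000 and harvested after 48 h, whereas the study's methods describe knockdown by lentivirus with puromycin selection. No other agent or genotype difference is named, and both groups are of 1 cell line. The labels do not say whether the 4 libraries of a group came from separate cultures, so p-values measure the spread between these libraries, which may be technical. How far circSOD2 itself was lowered was not analysed here.

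A miRNA hairpin is cut from a longer transcript by Drosha and then by Dicer into a duplex of 2 arms. One strand, the guide, is usually kept in an Argonaute protein and finds its targets by pairing through bases 2 to 8, the seed, while the other strand is usually degraded. The miR-106b/93/25 cluster is a paralogue of the miR-17-92a cluster of MIR17HG and of the miR-106a-363 cluster of the X chromosome. Its transcription with MCM7 is activated by E2F factors, and its guide strands are known to repress the cell cycle inhibitor CDKN1A and the pro-apoptotic factor BCL2L11. It is often raised in carcinomas.

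The 6 mature sequences are shown because the grouping by seed and the 2 arms of each hairpin carry the comparisons that follow. They are from RefSeq (GRCh38.p14), are written 5′ to 3′, and have the seed in capitals, and hsa marks the human species and is left out elsewhere.
hsa-miR-106b-5p: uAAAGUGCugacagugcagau
hsa-miR-106b-3p: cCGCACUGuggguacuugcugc
hsa-miR-93-5p: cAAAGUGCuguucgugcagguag
hsa-miR-93-3p: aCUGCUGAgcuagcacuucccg
hsa-miR-25-5p: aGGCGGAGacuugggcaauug
hsa-miR-25-3p: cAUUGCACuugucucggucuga
miR-106b-5p and miR-93-5p have the seed AAAGUGC, which 5 other listed miRNAs share, among them miR-17-5p and miR-20a-5p. The seed AUUGCAC of miR-25-3p is shared by 4 other listed miRNAs, among them miR-92a-3p. No other listed miRNA with a sequence has the seed of miR-106b-3p, miR-93-3p or miR-25-5p.

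The most abundant relatives of the 2 shared seeds are shown beside them, since their reads make up most of each seed family in these cells.
miR-17-5p: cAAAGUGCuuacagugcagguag
miR-20a-5p: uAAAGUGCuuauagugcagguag
miR-92a-3p: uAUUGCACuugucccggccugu
The mature sequence nearest to miR-93-5p was miR-17-5p, at an edit distance of 3 bases, and the nearest to miR-25-3p was miR-92a-3p, at 4. The nearest to miR-106b-5p was miR-106a-5p, at 5 bases. miR-106b-3p had no known mature sequence within fewer than 8 bases, the distance of miR-27b-3p. How the authors assigned reads with mismatches is not given in the sources used here, so the counts of close relatives such as miR-17-5p and miR-106a-5p, 1 base apart, may hold each other's reads.

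On GRCh38, MCM7 lies on the minus strand of chromosome 7 from 100092728 to 100101940. MIR106B (100093993 to 100094074), MIR93 (100093768 to 100093847) and MIR25 (100093560 to 100093643) are on the same strand, in that order of transcription, and span 515 bases. The gaps between them are 145 and 124 bases. In the transcript MCM7-201 all 3 lie in intron 13 of 14, which runs from 100093402 to 100094172 and is 771 bases long. In MCM7-202 they lie in a longer intron of 4717 bases. The hairpin MIR106B is shown with both arms in capitals, because its arms differed most between the groups among the 3 hairpins of the cluster.
MIR106B: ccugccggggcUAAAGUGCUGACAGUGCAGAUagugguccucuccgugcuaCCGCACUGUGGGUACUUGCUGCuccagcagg
In this hairpin the 5p arm precedes the loop and the 3p arm follows it.

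NC libraries held 6386872 to 9245044 counts, and circSOD2-sh libraries 3743860 to 4208276. Known miRNAs made up 36.2% to 41.9% of each NC library and 95.1% to 96.5% of each circSOD2-sh library, so the scaling of the libraries bears on every level. Levels are given as normalized CPM, that is CPM over a library total rescaled by TMM, a trimmed mean of ratios over the miRNAs tested. Of the 895 miRNAs with enough counts to be tested in edgeR, 588 had an adjusted p-value under 0.05, and the median log2 fold change of all 895 was -0.0021. With plain library totals that median moved by 0.96, with upper-quartile scaling by 0.84, and with the total of the known miRNAs by -0.41, so the direction of small changes was checked under 6 scalings. NC replicate 4 and circSOD2-sh replicate 2 stood apart from the other libraries in lists of miRNAs typical of other cell types. The summed level of 5 neural miRNAs was 5022 normalized CPM in circSOD2-sh replicate 2 and 487 to 568 in the others. Most of the 5022 was miR-124-3p, at 3217, and most of the sums in the others was miR-128-3p, at 437 to 516. The summed level of 4 stromal miRNAs was 605 in NC replicate 4, 251 in circSOD2-sh replicate 2 and 10.6 to 31.1 in the others. Erythroid miRNAs summed to 170, 58.6 and 21.6 to 42.3 in the same order, and leukocyte miRNAs to 17.1, 14.7 and 1.19 to 3.21. The 8 kidney tubule miRNAs summed to 7971 in NC replicate 4 and to 4534 to 6106 in the others. Of these, miR-10b-5p was at 1657 in NC replicate 4 and at 149 to 304 in the others. miR-200b-3p, at 3985 in NC replicate 4, lay within the NC range of 3774 to 4455. No miRNA of these lists was at 0 in every library, and their part in the values of the cluster was not tested. No batch is named that holds libraries of both groups, so a batch and the groups cannot be told apart. These are bulk libraries, in which fewer cells of a type and less RNA per cell cannot be told apart.

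The arms of the cluster fell into 3 patterns between the groups. The 3p arm of MIR106B had 7 to 17 counts per library in NC and was the third most abundant arm of the cluster in circSOD2-sh. The 3p arm of MIR93 was about 4 times higher (ratio of means, 3.97). The other 4 arms, which include the main arm of each hairpin in NC, had ratios of circSOD2-sh to NC of 0.765 to 1.36. All 6 members passed the low-count filter, which asks for enough reads in as many libraries as a group holds. miR-106b-3p passed it only through the circSOD2-sh libraries, where it is high. By the adjusted p-value that gave 65.7% of all miRNAs tested (33.3% higher and 32.4% lower), 4 of the 6 differed, 3 higher and 1 lower. These counts depend on the scaling. With library totals 613 miRNAs were called higher and 158 lower, with upper-quartile scaling 570 and 160, and with the total of the known miRNAs 204 and 420, against 298 and 290 with TMM. The members called were 6 higher and 0 lower with library totals and with upper-quartile scaling, and 2 higher and 1 lower with the total of the known miRNAs. For 4 of the 6 the groups did not overlap, against 60.3% of all miRNAs tested. The choice of the cluster used this contrast, so nothing is read from these counts. The median log2 fold change of the 6 was 0.27.

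**Figure D1:**
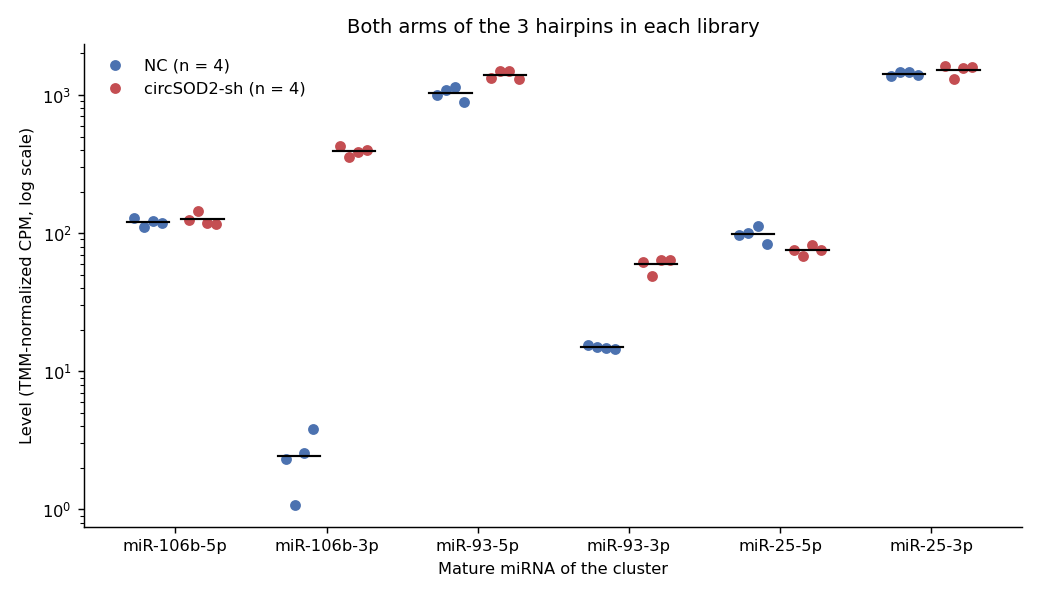
Level of each mature miRNA of the cluster in each library, in TMM-normalized CPM on a log axis. Points are the 4 NC and the 4 circSOD2-sh libraries and bars are group means. miR-106b-3p is at 1.08 to 3.82 in NC and at 357.7 to 429.8 in circSOD2-sh, while the groups overlap for miR-106b-5p and miR-25-3p.

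miR-106b-3p, the minor arm of its hairpin in NC, had 15, 7, 15 and 17 counts in NC replicates 1 to 4. In circSOD2-sh replicates 1 to 4 it had 2529, 2026, 1925 and 2239 counts. Every circSOD2-sh library was above every NC library, and the NC level rests on few reads. In normalized CPM it was at 2.30, 1.08, 2.56 and 3.82 in NC and at 429.8, 358, 386 and 398 in circSOD2-sh. The mean was 2.44 ± 1.12 for NC against 393 ± 29.9 for circSOD2-sh (SD, n = 4 each), a ratio of 161, and the fitted log2 fold change was 7.36 (SE 0.30). This was the sixth highest log2 fold change of the 463 known miRNAs tested, a set that miR-106b-3p entered only through its circSOD2-sh levels. Under the 6 scalings tried it lay between 7.01 and 8.33, with a prior count of 2 it was 7.17, and without NC replicate 4 and circSOD2-sh replicate 2 it was 7.57. The NC spread of miR-106b-3p was wide for its mean, the highest NC library being above 3 times the lowest.

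miR-106b-5p, the arm with the miR-17 seed and the main arm of this hairpin in NC, had 844, 725, 724 and 524 counts in NC and 728, 825, 593 and 654 in circSOD2-sh. Its mean was 120.6 ± 7.65 normalized CPM for NC against 126 ± 13.3 for circSOD2-sh (SD, n = 4 each), with a log2 fold change of 0.07 (SE 0.11). The NC libraries ran from 112 to 129 and the circSOD2-sh libraries from 116 to 146, so the groups overlapped. The highest library of all 8 was circSOD2-sh replicate 2. In a fit without it, filtered and scaled anew, the log2 fold change was -0.12, and the median of all miRNAs tested was -0.145. Without circSOD2-sh replicate 1, 3 or 4 the log2 fold change was -0.05, -0.06 or -0.01. It was -0.28 with the total of the known miRNAs and 1.03 with library totals, so that this arm had no fixed direction. The 2 arms of MIR106B thus differed from each other by over 7 on the log2 scale in their change within the same libraries.

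miR-93-5p, the other arm with the miR-17 seed, had 6568, 7090, 6679 and 3995 counts in NC. In circSOD2-sh it had 7800, 8436, 7456 and 7390 counts. The means were 1034 ± 106 normalized CPM for NC against 1406 ± 99.9 for circSOD2-sh (SD, n = 4 each), which gave a fitted log2 fold change of 0.44 (SE 0.09). The NC libraries lay between 898 and 1139 and the circSOD2-sh libraries between 1314 and 1496, so the groups did not overlap. The value was positive under all 6 scalings, from 0.10 with the total of the known miRNAs to 1.41 with library totals. It was 0.26 without circSOD2-sh replicate 3 and 0.25 without NC replicate 4 and circSOD2-sh replicate 2. Both are from fits filtered and scaled anew, in which the medians of all miRNAs tested were -0.10 and -0.13.

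miR-93-3p, the minor arm of MIR93, had 101, 98, 87 and 64 counts in NC and 361, 277, 317 and 357 in circSOD2-sh. It was at 14.9 ± 0.464 normalized CPM for NC against 59.3 ± 7.03 for circSOD2-sh (SD, n = 4 each), which gave a fitted log2 fold change of 1.99 (SE 0.13). The NC libraries were close together, from 14.4 to 15.5, and all 4 circSOD2-sh libraries were above them, from 48.9 to 63.6. The log2 fold change stayed between 1.64 and 2.96 under the 6 scalings.

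miR-25-3p, the guide arm of MIR25 and the most abundant arm of the cluster in NC, had 9006, 9516, 8564 and 6193 counts in NC. In circSOD2-sh it had 9564, 7418, 7883 and 9008 counts. The means were 1425 ± 44.1 normalized CPM for NC against 1529.8 ± 148 for circSOD2-sh (SD, n = 4 each), with a log2 fold change of 0.10 (SE 0.08). The groups overlapped, since circSOD2-sh replicate 2 at 1309.7 was below all 4 NC libraries (1381 to 1465) while the other circSOD2-sh libraries (1582 to 1626) were above them. The log2 fold change was -0.24 with the total of the known miRNAs, 1.07 with library totals and -0.06 without circSOD2-sh replicate 3. The last value is from a fit filtered and scaled anew, in which the median of all miRNAs tested was -0.10.

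miR-25-5p, the minor arm of MIR25, was the only arm of the cluster with a lower level in circSOD2-sh under TMM, and this direction turned under other scalings. It had 629, 652, 656 and 374 counts in NC and 441, 385, 411 and 421 in circSOD2-sh. The means were 98.2 ± 11.5 normalized CPM for NC against 75.1 ± 5.92 for circSOD2-sh (SD, n = 4 each), which gave a fitted log2 fold change of -0.39 (SE 0.12). The lowest NC library, at 84.1, was above the highest circSOD2-sh library, at 82.5, so the groups were separated by a narrow gap. Under 3 of the 6 scalings the value was positive, up to 0.58 with library totals, and with the total of the known miRNAs it was -0.73.

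The order of the levels within the cluster differed between the groups. In NC miR-25-3p was highest, 1.38 times miR-93-5p, which in turn was 8.58 times miR-106b-5p. The ranges of miR-106b-5p and miR-25-5p over the NC libraries overlapped, although miR-106b-5p was the higher within each NC library. miR-93-3p and miR-106b-3p followed at the low end. In circSOD2-sh miR-25-3p and miR-93-5p overlapped at the top. miR-106b-3p was the next, 3.11 times miR-106b-5p, and miR-25-5p and miR-93-3p came last. Mature miRNAs are of nearly equal length, 21 to 23 bases here, so levels per read are close to levels per length, although capture of each sequence in a library can differ.

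A ratio of the 2 arms within a library does not depend on how that library is scaled, apart from a small constant of 0.5 normalized CPM added to each arm. The log2 of 5p over 3p in MIR106B was 5.54, 6.15, 5.34 and 4.77 in NC and -1.79, -1.29, -1.69 and -1.77 in circSOD2-sh. The main arm was therefore the 5p arm in all 4 NC libraries and the 3p arm in all 4 circSOD2-sh libraries. The means were 5.45 ± 0.57 (SD, n = 4) and -1.64 ± 0.23 (SD, n = 4), a change of -7.09 (SE 0.27). The 3p arm took 1.97% ± 0.905 of the reads of this hairpin in the NC libraries against 75.6% ± 3.09 in the circSOD2-sh libraries (SD, n = 4 each). Without NC replicate 4 and circSOD2-sh replicate 2 the change was -7.44.

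In MIR93 the 5p arm stayed the main arm in every library. Its log2 ratio was 5.98, 6.13, 6.22 and 5.92 in NC and 4.42, 4.91, 4.55 and 4.36 in circSOD2-sh. The change was -1.50 (SE 0.15) with no overlap of the groups, and the 3p share of the hairpin was 1.44% ± 0.134 for NC against 4.07% ± 0.635 for circSOD2-sh (SD, n = 4 each). In MIR25 the 3p arm stayed the main arm, with log2 ratios of -3.83, -3.86, -3.70 and -4.04 in NC. In circSOD2-sh they were -4.43, -4.26, -4.25 and -4.41. The groups did not overlap here either, the change was -0.48 (SE 0.12), and the 3p share was 93.6% ± 0.583 for NC against 95.3% ± 0.295 for circSOD2-sh (SD, n = 4 each). In all 3 hairpins the change was toward the 3p arm, by sizes that ranged from 0.48 to 7.09 on the log2 scale.

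**Figure D2:**
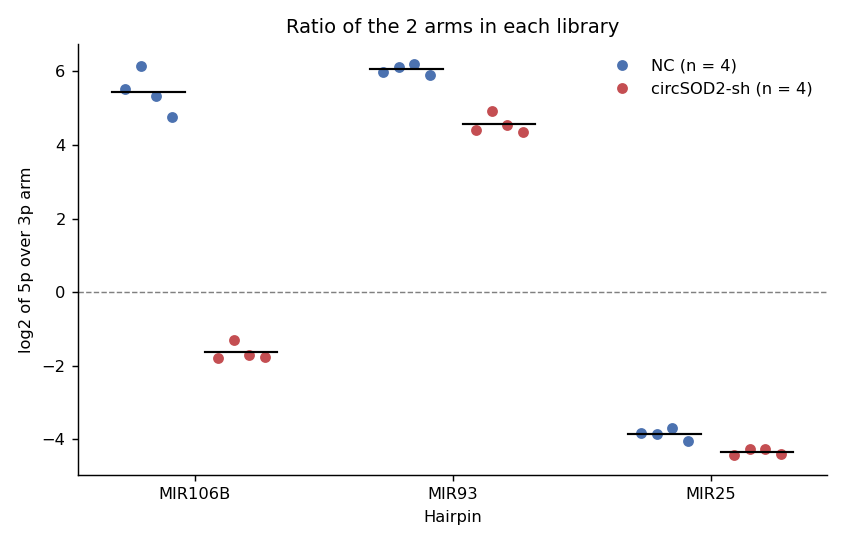
log2 ratio of the 5p arm over the 3p arm of each hairpin in each library, with 0.5 normalized CPM added to each arm. Points are the 4 NC and the 4 circSOD2-sh libraries, bars are group means, and the dashed line marks equal arms. MIR106B crosses this line, from a mean of 5.45 in NC to -1.64 in circSOD2-sh, and MIR93 and MIR25 do not.

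Summing both arms gives the mature reads of each hairpin, while the hairpin transcripts themselves were not measured. MIR106B had 123 ± 8.04 normalized CPM for NC against 519 ± 23.4 for circSOD2-sh (SD, n = 4 each), 4.22 times as much. By the same measure MIR93 had 1049 ± 106 and 1466 ± 96.6, a ratio of 1.40, and MIR25 had 1523 ± 53.1 and 1605 ± 152, a ratio of 1.05. The summed mature arms of the hairpins of 1 intron thus had unequal ratios. The ratio of MIR106B rests on its 3p arm, since its 5p arm had a ratio of 1.05.

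Both arms were tested under the same name stem in 117 hairpins. Of these, 58.1% (68) had a 5p to 3p ratio with an adjusted p-value under 0.05 in limma. All 3 hairpins of the cluster were among them, which is read as a description because the choice of the cluster used these libraries. The median change over the 117 was -0.01 and the median size of change was 0.60, with 23 hairpins changing by more than 1 toward the 3p arm and 21 toward the 5p arm. Among the 117, which MIR106B entered only through the circSOD2-sh level of its 3p arm, its change was the second largest. That of miR-532 was larger, at -13.85, and this hairpin is named after its value was seen. Hairpins whose arms are named differently were left out of the 117, such as miR-125b, also named after its values were seen. In edgeR the log2 fold change was 8.60 (SE 0.95) for miR-125b-5p and -1.11 for miR-125b-1-3p. The ratio of these arms thus changed by more than that of MIR106B. Within the 117, the 3 hairpins nearest to MIR106B in change were miR-23a at -6.84, miR-26b at -4.50 and miR-188 at -4.50. They were picked by these changes, so they are given as a description with no test. miR-23a and miR-26b differed from MIR106B in that their main arm was the same in both groups, with mean log2 ratios of -3.06 and -9.90 in miR-23a and of 10.05 and 5.55 in miR-26b. In miR-188 the ratio changed sign as in MIR106B, from 2.92 to -1.57, and so did that of miR-532, from 7.05 to -6.79. By group means the main arm differed between the groups in 9 of the 117 hairpins, and in 7 of them, MIR106B included, every library of a group had the same main arm.

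**Figure D3:**
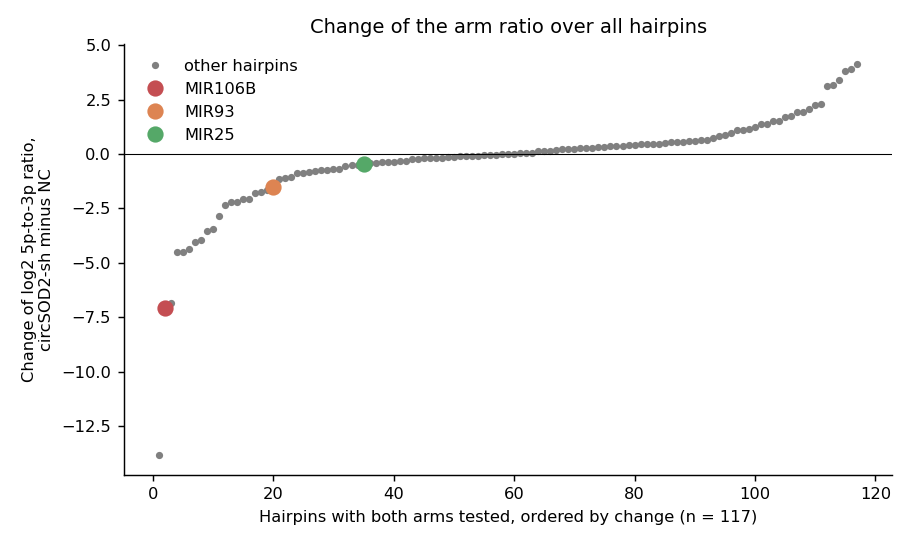
Change of the log2 ratio of the 5p over the 3p arm, circSOD2-sh minus NC. Shown are the 117 hairpins with both arms tested under the same name stem, ordered from the largest fall. The 3 hairpins of the cluster are marked, MIR106B at -7.09, MIR93 at -1.50 and MIR25 at -0.48, and the median hairpin is at -0.01.

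The paralogous clusters were not used to choose the members, but these lists too were written with earlier results of these data known. Their values were read from the same fit over all miRNAs. Of the 12 arms of the miR-17-92a cluster, 11 were tested and 6 had an adjusted p-value under 0.05 in edgeR, 4 higher and 2 lower, beside 65.7% of all miRNAs tested (33.3% higher and 32.4% lower), and with a median log2 fold change of 0.16. miR-18a-3p, the minor arm of its hairpin, rose by 2.12 (SE 0.17, adjusted p = 1.8e-06), from 3.62 ± 0.453 to 15.8 ± 2.11 normalized CPM (SD, n = 4 each). miR-92a-3p, which shares its seed with miR-25-3p, rose by 1.69 (SE 0.06, adjusted p = 6.11e-09), from 2395 ± 114 to 7711 ± 198. miR-20a-5p rose by 1.17 (SE 0.13, adjusted p = 2.71e-05) and miR-17-5p by 0.49 (SE 0.11, adjusted p = 0.00241). Both carry the seed of miR-93-5p. miR-19b-1-5p decreased by 2.89 (SE 0.26, adjusted p = 5.28e-06), and the change of miR-92a-1-5p was -0.54 (adjusted p = 0.00118) but turned to 0.43 with library totals. The values that did not pass were 0.14 for miR-17-3p (adjusted p = 0.247), -0.24 for miR-18a-5p (adjusted p = 0.12), -0.08 for miR-20a-3p (adjusted p = 0.557), 0.29 for miR-19a-3p (adjusted p = 0.303) and 0.16 for miR-19b-3p (adjusted p = 0.567).

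The direction of miR-18a-3p, miR-92a-3p, miR-20a-5p, miR-17-5p and miR-19b-1-5p was the same under all 6 scalings, although miR-17-5p was called under 5 of them. In the miR-106a-363 cluster 7 of 12 arms were listed and 4 tested, and 3 rose, beside 33.3% of all miRNAs tested. Among the 3 was miR-92a-3p again, whose sequence is in hairpins of both clusters, so its reads cannot be assigned to either. The 2 others were miR-20b-5p, at 1.05 (SE 0.20, adjusted p = 0.00109), and miR-106a-5p, at 0.71 (SE 0.17, adjusted p = 0.00418), each positive under all 6 scalings. No tested arm of the 2 paralogous clusters had a log2 fold change above 2.12, compared with 7.36 for miR-106b-3p.

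**Figure D4:**
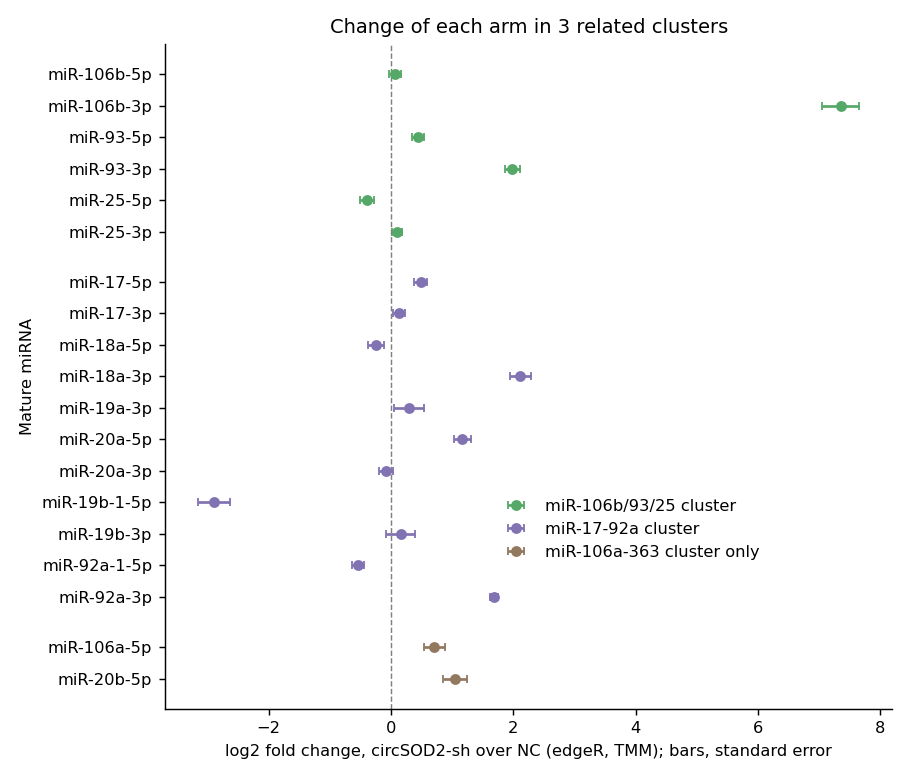
log2 fold change of each tested arm, circSOD2-sh over NC, from edgeR with TMM, in the miR-106b/93/25, miR-17-92a and miR-106a-363 clusters. Bars are standard errors. miR-106b-3p is at 7.36 and every other arm between -2.89 and 2.12, and values within about 1 of 0 can change direction with the scaling, as miR-25-5p and miR-92a-1-5p do.

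The ratio of the arms also differed in paralogous hairpins, in both directions. miR-18a changed by -2.23 toward its 3p arm (limma adjusted p = 3.31e-06), as the 3 hairpins of the cluster did. miR-20a changed by 1.24 toward its 5p arm (adjusted p = 1.45e-05) and miR-17 by 0.35 (adjusted p = 0.030). miR-92b, of the same seed family as miR-25, changed by -1.81 toward its 3p arm (adjusted p = 2.45e-06), and miR-32 was at -0.25 (adjusted p = 0.129). By group means the same arm was the main arm in both groups in all 5. Of these, miR-32 was the closest to equal arms, with mean log2 ratios of -0.10 and -0.35. The miR-19b-1 and miR-92a-1 hairpins had no ratio, since their arms are named differently. Their edgeR log2 fold changes were -2.89 for miR-19b-1-5p beside 0.16 for miR-19b-3p, and -0.54 for miR-92a-1-5p beside 1.69 for miR-92a-3p. Both pairs moved toward the 3p arm, but each 3p sequence has 2 loci.

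Shares within a seed family do not depend on library scaling. miR-93-5p and miR-106b-5p together held 28.7% ± 0.181 of the reads of the miR-17 seed family in the NC libraries against 23.8% ± 1.44 in the circSOD2-sh libraries (SD, n = 4 each), with no overlap of the groups. Within this family miR-20a-5p went from 26.5% ± 0.731 (SD, n = 4) to 37.0% ± 1.38 (SD, n = 4) and miR-17-5p from 43.6% ± 0.765 (SD, n = 4) to 38.0% ± 0.549 (SD, n = 4). All 4 tested members of the family outside the cluster were called higher, beside 33.3% of all miRNAs tested, and 3 of them without circSOD2-sh replicate 3 or with the total of the known miRNAs. miR-25-3p held 30.8% ± 0.445 of the miR-25/92 seed family in the NC libraries against 14.8% ± 0.947 in the circSOD2-sh libraries (SD, n = 4 each), again with no overlap. In the same family miR-92a-3p held 51.7% ± 0.862 (SD, n = 4) and 74.8% ± 0.744 (SD, n = 4). Of the 3 tested members of this family outside the cluster, miR-92a-3p and miR-92b-3p, the latter at 0.42 (SE 0.06, edgeR adjusted p = 0.00021), were called higher, beside the same 33.3%, and miR-32-5p was at -0.31 (adjusted p = 0.0729). miR-92b-3p was called under 5 of the 6 scalings.

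Within the cluster itself, miR-106b-3p held 0.0920% ± 0.0465 of the reads in the NC libraries against 10.9% ± 0.674 in the circSOD2-sh libraries (SD, n = 4 each). miR-25-3p held 52.9% ± 1.80 (SD, n = 4) and 42.6% ± 3.05 (SD, n = 4), and miR-93-5p held 38.3% ± 1.81 (SD, n = 4) and 39.2% ± 3.33 (SD, n = 4). The cluster as a whole held 0.499% ± 0.0159 of the counts of known miRNAs in the NC libraries against 0.524% ± 0.0377 in the circSOD2-sh libraries (SD, n = 4 each), and the groups overlapped.

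**Figure D5:**
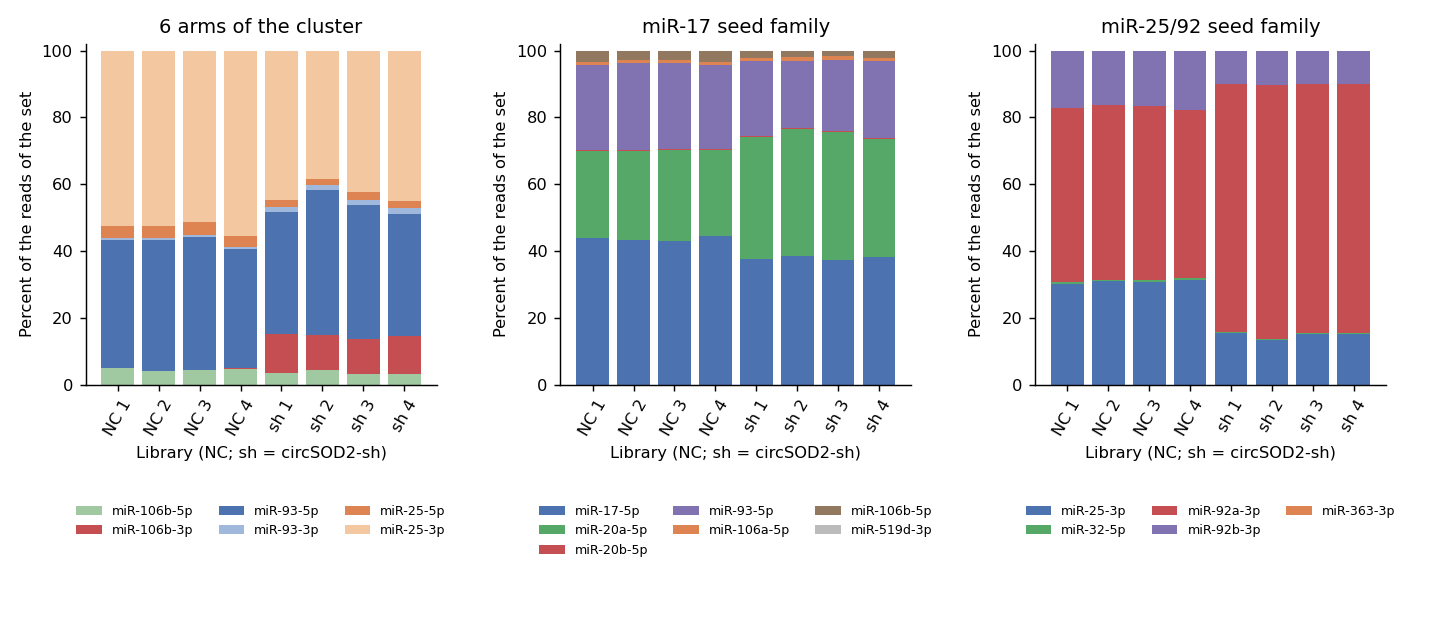
Percent of reads held by each miRNA within the 6 arms of the cluster, within the miR-17 seed family and within the miR-25/92 seed family, in each of the 4 NC and 4 circSOD2-sh (sh) libraries. miR-106b-3p goes from a mean of 0.0920% to 10.9% of the cluster and miR-25-3p from 30.8% to 14.8% of its seed family.

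Other known miRNAs with a like pattern over the 8 libraries were sought by the root mean square distance between log2 patterns, each centred on its own mean, among 242 known miRNAs outside the cluster that averaged 100 or more counts. A small distance means that 2 patterns go up and down by like amounts in the same libraries, and all patterns share the 8 libraries and their scaling. The pattern nearest to miR-106b-3p was that of miR-345-5p, at a distance of 0.69, followed by miR-342-3p at 1.00 and miR-4286 at 1.24. Like miR-106b-3p, miR-345-5p and miR-342-3p are among the candidates that the study selected on these groups. The distances for miR-106b-3p were larger than those of the 5 other members, whose nearest patterns lay within 0.126. miR-17-5p was the nearest to miR-93-5p, at 0.0674, followed by miR-191-5p at 0.0845 and miR-103a-3p at 0.0884. miR-92a-3p, of the miR-17-92a cluster, was the third nearest to miR-93-3p, at 0.161, after miR-125a-5p at 0.126 and let-7a-2-3p at 0.149. The 3 patterns nearest to each of the remaining arms were close to theirs, and for miR-25-3p, miR-25-5p and miR-106b-5p none of them was of the paralogous clusters or the 2 seed families. For miR-25-3p the nearest were miR-301a-5p (0.0553), miR-589-5p (0.0795) and miR-16-2-3p (0.0816). Those of miR-25-5p were miR-421 (0.0705), miR-222-3p (0.0918) and miR-183-5p (0.0920). Those of miR-106b-5p were miR-652-3p (0.105), miR-200a-5p (0.108) and miR-181a-5p (0.112).

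The base composition of the mature sequences moved with the fold changes. Over the 403 tested known miRNAs with a sequence, Spearman's rho with the log2 fold change was 0.345 for the percent of C and -0.285 for the percent of G, given as a description across miRNAs that share the 8 libraries. The 2 members with the largest values, miR-106b-3p and miR-93-3p, were 31.8% and 36.4% C, more than 79.4% and 87.3% of these miRNAs. miR-106b-3p was also 31.8% G, more than 72.2% of them. miR-25-5p, the member with the lowest log2 fold change, was 14.3% C and 42.9% G, and 94.8% of these miRNAs had less G. miR-106b-5p had the same 14.3% C and a log2 fold change of 0.07. The part of base composition in the values of the cluster was not tested.

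circSOD2 was rebuilt from the annotated SOD2 exons as the circle whose back-splice junction holds both shRNA target sequences of the study. It is 462 bases long, of 3 exons, within 159682474 to 159688242 of chromosome 6 (GRCh38). The exact complement of bases 2 to 8 was searched on the strand of the circle, across the junction, namely GCACTTT for miR-106b-5p and miR-93-5p, CAGTGCG for miR-106b-3p, TCAGCAG for miR-93-3p, CTCCGCC for miR-25-5p and GTGCAAT for miR-25-3p. It was found 0 times for each of the 6 members. Of the 403 tested known miRNAs with a sequence, 22 (5.46%) had at least 1 match. No match says only that these letters are not in this circle.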

How the data were processed

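Small RNA of 4 NC and 4 circSOD2-sh samples was analysed from tables per mature miRNA. The authors deposited raw counts, CPM computed by the authors over totals larger than the listed counts, and a comparison table with mean CPM, log2 fold changes, p-values and up or down calls, which was not used. The submitters' processing notes name FastQC 0.11.2, Trimmomatic 0.36, Bowtie 1.1.1 and GRCh38, without roles, and the counting tool and miRNA annotation are not given in the sources used here. The number of sample columns left unused was 0. The members and lists were chosen with earlier results of these data known.

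The counts were tested with edgeR 4.0.16 under R 4.3.3 (filterByExpr with a minimum count of 10, TMM, quasi-likelihood test, prior count 0.125, Benjamini-Hochberg adjustment over all miRNAs tested). Arm ratios, as log2 with 0.5 normalized CPM added to each arm, were tested with limma 3.58.1. This covered all hairpins with both arms tested under the same name stem, and hairpins whose arms are named differently were left out. SE of log2 fold changes were taken from the quasi-likelihood F. DESeq2 1.42.0, other scalings, filters, constants and libraries left out were alternatives. The edgeR and limma steps were run on simulated counts, with changes in both directions in fewer miRNAs than were called here. The simulated counts lacked the difference between the groups in the share of known miRNAs, so they do not bear on the choice of scaling. No 2 libraries of a group agreed within sampling noise, with a chi-square per degree of freedom of at least 9.45. Sequences are from RefSeq and were matched by name for 1298 of 1482 known miRNAs and 6 of 6 members. Loci are from GENCODE on GRCh38. Python 3.11.15, scipy 1.17.1 and matplotlib 3.10.9 were used.

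The miRNAs named are the 6 members, the arms of the 2 paralogous clusters and members of the 2 seed families with the most counts or called, the 3 nearest patterns of each member, and the 3 hairpins nearest to MIR106B in arm change. Same-numbered libraries did not deviate together, with correlations of deviations of 0.272, -0.201, 0.158 and -0.259, so the numbers were not taken as pairs. Depth was between 3743860 and 9245044 counts per library. PCR reads without molecular identifiers are not independent molecules. The Wilson interval takes each read as independent, so it covers counting error only and may be too narrow even for that.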

Additional observations from a re-analysis of the deposited data

Results flagged for a closer look

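In 3 of the 26 groups of 4 libraries examined, 1 library lay far from the other 3 by Dixon's rule, and all 3 were circSOD2-sh replicate 2. Chance marks about 1 in 20 groups, and the groups share libraries. miR-93-3p was at 48.9 normalized CPM in that library and at 61.4 to 63.6 in the others. miR-25-3p was at 1309.7 normalized CPM there and at 1582 to 1626 in the others. Its share of the miR-25/92 seed family was 13.4% there (95% Wilson interval 13.1% to 13.7%) and 15.2% to 15.4% in the others. The same library had a summed level of neural miRNAs of 5022 normalized CPM, and the part of these in the 3 values was not tested.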

How the results depend on the processing

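The 588 of 895 miRNAs with an adjusted p-value under 0.05 became 361 of 502 with a mean of at least 50 counts. With known miRNAs only, 246 of 463 were called (123 higher, 123 lower), and all members and related lists are of known miRNAs. With 1 library left out 537 to 661 were called. Of the scalings, library totals gave 771, upper-quartile 730, totals implied by the deposited CPM 722 and the total of the known miRNAs 624, and limma on deposited CPM gave 722 (plus 1) and 716 (plus 0.1). Calls were mostly higher under these (553 to 613 higher, 158 to 164 lower) except with the total of the known miRNAs (204 higher, 420 lower). The 68 arm ratios became 109 with no low-count filter, where more hairpins were tested, and 62 to 74 with 1 library left out. With 5 in place of 0.5 added to each arm, the change was -5.69 for MIR106B and -1.24 for MIR93, as the larger constant compresses low arms. With 1 library left out the changes were -7.33 to -6.87 for MIR106B, -1.62 to -1.43 for MIR93 and -0.54 to -0.43 for MIR25.

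The log2 fold change of miR-25-5p turned from -0.39 to 0.58 with library totals, 0.45 with upper-quartile scaling, 0.43 with totals implied by the deposited CPM, and 0.44 in limma on deposited CPM plus 1 or plus 0.1. With the total of the known miRNAs, chosen after seeing the data, miR-106b-5p turned to -0.28 and miR-25-3p to -0.24. Without NC replicate 4 and circSOD2-sh replicate 2, miR-106b-5p turned to -0.12. Each fit with libraries left out was filtered and scaled anew. With 1 left out, the median of all miRNAs tested lay between -0.145 and 0.067. The values with all 8 libraries can therefore lie outside the ranges that follow. With 1 library left out, miR-106b-5p ranged from -0.115 to 0.053, miR-25-3p from -0.064 to 0.065, miR-93-5p from 0.26 to 0.44, miR-93-3p from 1.80 to 1.96, miR-25-5p from -0.59 to -0.37 and miR-106b-3p from 7.03 to 7.57. The share of miR-106b-3p in the cluster differed by 10.57 to 11.05 percentage points, that of the cluster in the known miRNAs by 0.0106 to 0.0407, both ranges chosen after seeing the data, that of miR-25-3p in its family by -16.2 to -15.5, and that of miR-93-5p with miR-106b-5p by -5.38 to -4.36. The miR-17-92a arms called rose from 6 to 10 or 11 with library totals, upper-quartile scaling or deposited CPM.

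With the replicate block, 574 miRNAs and 64 arm ratios were called, and the log2 fold change of miR-106b-3p was 7.39. Each of the 6 members kept its direction under it. DESeq2 called 572 miRNAs. miR-106b-3p rests on 7 to 17 counts per NC library, which limits its fold change.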
